A study of Mus musculus with 4 samples.

Results

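To describe how medullary thymic epithelial cells (mTECs) express neuroendocrine genes with and without *Sirt6*, 39 genes were taken by symbol from the deposited count table of 23337 genes. The list holds transcription factors of endocrine cells, proteins of the secretory granule, and precursors of peptide hormones and neuropeptides. All 39 were in the table, and all 39 passed the filter on low counts that left 18547 genes to test. The mTECs (CD45-EpCAM+UEA-1+Ly51-) had been sorted from the thymus of 4-week-old C57BL/6 mice and measured by RNA-seq in 4 libraries, 2 for each group. The control group (WT) was wild type in the labels and, in the methods of the study, negative for *Foxn1*-Cre. The other group was labelled *Sirt6*-/-, and the study made it by crossing *Sirt6* loxp/loxp mice with *Foxn1*-Cre mice, so that the Cre is driven by a promoter of thymic epithelium (*Sirt6* cKO). The 2 samples of a group are called independent in the methods, without a statement on how many mice each held, so p-values measure the spread between these samples.

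Neuroendocrine cells store peptides in dense-core granules and release them when calcium rises. A peptide is made as a longer precursor, sorted into the granule with the help of granins, cut by prohormone convertases and trimmed by a carboxypeptidase. mTECs express many genes of peripheral tissues at low levels, hormones included, and present their products to developing T cells. Some mTECs express whole programs of a peripheral cell type, and endocrine-like and tuft-like cells are among them.

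The libraries held between 61102704 and 65907745 counts, and between 18608 and 19475 genes had at least 1 count. The targeted gene, *Sirt6*, was at 622 and 755 counts in WT against 882 and 835 in *Sirt6* cKO (values of a group stand in the order of the replicate number). Loss of *Sirt6* messenger RNA was not seen in the samples labelled as lacking the gene (log2 fold change 0.37 with a standard error, SE, of 0.32, adjusted p = 0.800, edgeR), and whether the floxed exons were missing was not tested. Each direction below rests on these labels. The study checked the deletion by western blot of cultured TECs and by quantitative PCR of sorted cells, and reported that *Sirt6* was inactivated. The sorted cells were mTECs taken with the same markers as these libraries, and cortical epithelial cells. Neither check was made on these libraries. All 10 markers of mTECs on a list fixed for the check were detected in every library. *Aire*, the transcription factor that drives expression of peripheral tissue genes, lay at 395 and 495 TPM in WT and at 632 and 754 TPM in *Sirt6* cKO. This level was 1.57-fold higher with an unadjusted p of 0.0144 (edgeR adjusted p = 0.541, DESeq2 adjusted p = 0.168). By flow cytometry, the study instead found Aire in mTECs to be similar in both groups. Why the RNA and the flow cytometry differ was not tested. *Cd80*, a costimulatory ligand of mature mTECs, had 4508 and 4469 counts in WT against 7434 and 9226 in *Sirt6* cKO (1.92-fold higher, DESeq2 adjusted p = 0.0110, edgeR adjusted p = 0.541). The study reported a larger proportion of CD80+ mTECs by flow cytometry, and higher *Cd80* by quantitative PCR in mature mTECs, after *Sirt6* deletion. TPM, a transcript's share of each library, scales counts by transcript length and depth, and levels of different genes are compared on this scale only.

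Of the 39 neuroendocrine genes, 8 fell at an unadjusted p of 0.05, none rose, and 31 did not pass (edgeR's quasi-likelihood test). They were *St18*, *Scg2*, *Grp*, *Cpe*, *Pcsk1*, *Gal*, *Penk* and *Gh*, which make up 20.5% of the list. Among all genes tested, 3.32% were lower and 5.27% higher by the same rule. None of the 39 had an adjusted p under 0.05 with edgeR, which called 0.00539% of all genes, and the adjusted p of the 8 genes ran from 0.541 to 0.578. With DESeq2, *St18* and *Scg2* also passed the adjusted threshold as lower, against 0.795% of all genes, and no member passed as higher, against 1.03%. Negative fold changes were found in 31 of the 39, against 50.4% of all genes tested. Over the list the median log2 fold change was -0.40, beside -0.0047 over all genes tested. Both *Sirt6* cKO libraries lay below both WT libraries in 19 of the 39 genes, against 20.3% of all genes tested. They lay above both WT libraries in 3 of the 39, against 21.6% of all genes tested. In the other 17 genes the groups overlapped. With 1 library left out, between 2 and 5 of the 8 still passed, and without WT 2 or without *Sirt6* cKO 1 these were *St18* and *Scg2*. The 8 genes also stand in the study's own list of changed genes, which was drawn from these libraries and is no independent evidence of their direction.

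Together the 39 genes summed to 3053 and 2958 TPM in the WT libraries against 2543 and 2659 TPM in *Sirt6* cKO. These sums are 0.305%, 0.296%, 0.254% and 0.266% of all transcripts. The largest part of each sum was *Calcb*, with 1364 and 1141 TPM in WT and 1216 and 1212 TPM in *Sirt6* cKO. *Calcb* did not pass the test (log2 fold change -0.04, SE 0.17). Each gene was also set against its own mean over the 4 libraries in log2 CPM (counts scaled to library size, with TMM factors). The median of these deviations was 0.16 and 0.26 for the WT libraries and -0.30 and -0.076 for *Sirt6* cKO. The deviations were lowest in *Sirt6* cKO 1, where 7 of 39 lay above their own mean, against 13 in *Sirt6* cKO 2, 27 in WT 1 and 28 in WT 2. In RNA from a sorted population, fewer cells of an endocrine-like kind and less RNA in each such cell cannot be told apart.

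**Figure D1:**
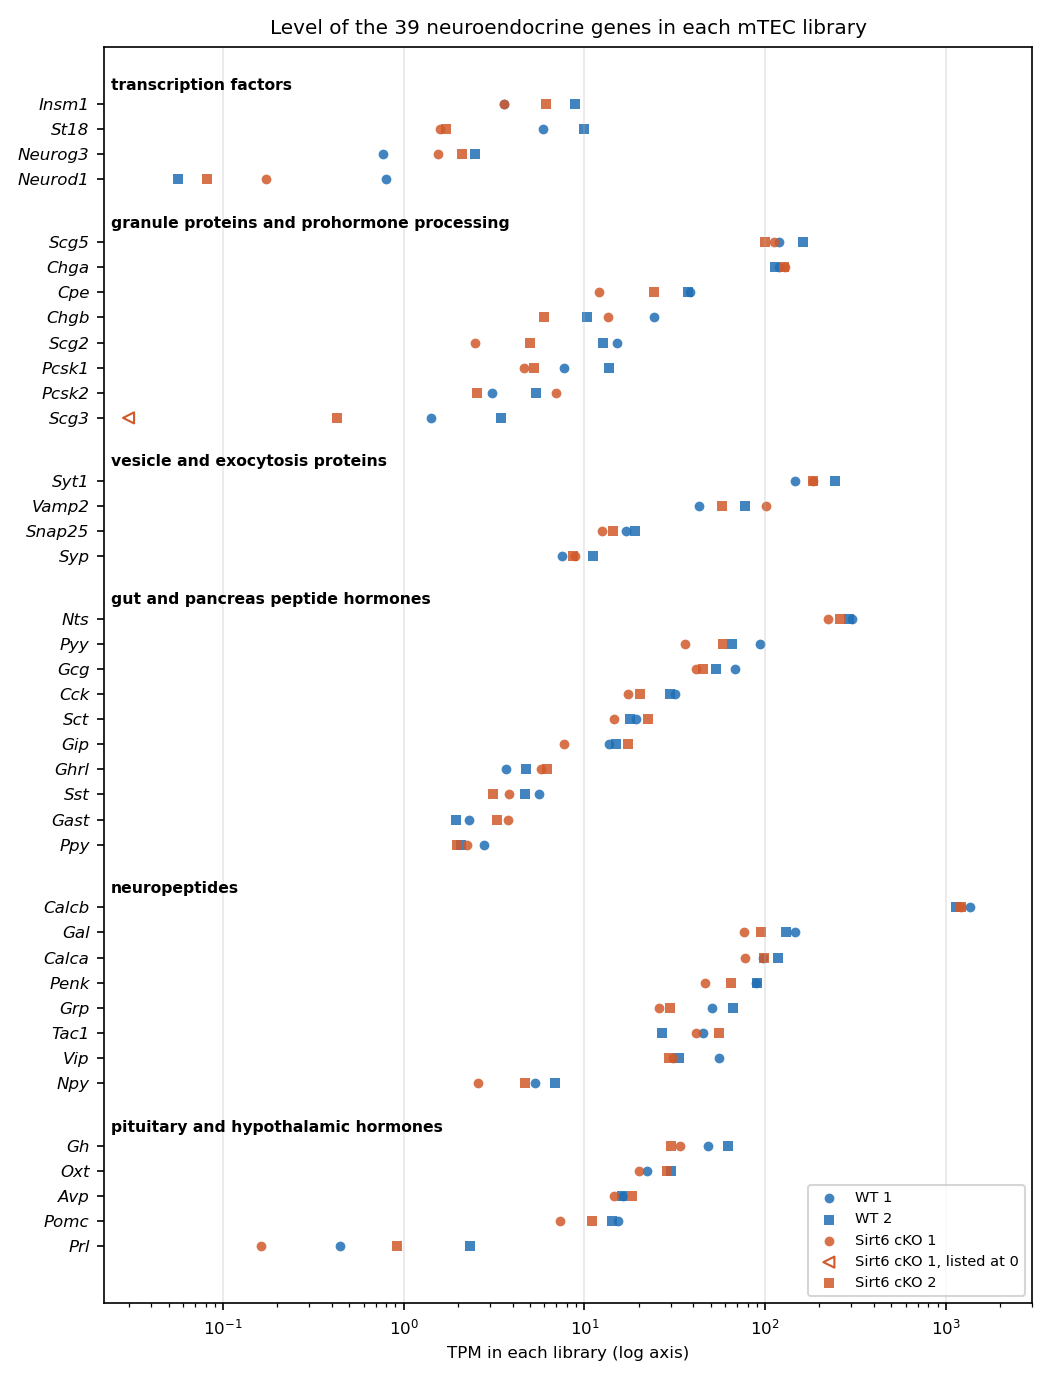
Level of each of the 39 genes in TPM (log axis) in the 4 libraries, grouped by role, with circles for replicate 1 and squares for replicate 2 of WT (blue) and *Sirt6* cKO (orange). Levels run from under 1 TPM for *Neurod1* to 1364 TPM for *Calcb* in WT 1, and *Scg3* is listed at 0 in *Sirt6* cKO 1 (open triangle, drawn at the edge).

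The levels of single genes spanned a wide range. *Calcb*, which encodes the beta form of calcitonin gene-related peptide, was the most abundant, with 1364 and 1141 TPM in WT and 1216 and 1212 TPM in *Sirt6* cKO. *Nts*, the precursor of neurotensin, followed with 301 and 292 TPM in WT and 222 and 258 TPM in *Sirt6* cKO. Next came *Syt1*, a calcium sensor of vesicle fusion, with 146 and 244 TPM in WT and 185 and 183 TPM in *Sirt6* cKO. The granule gene *Scg5* lay at 120 and 162 TPM in WT and at 112 and 99.3 TPM in *Sirt6* cKO. *Chga*, the founding granin and a general marker of neuroendocrine cells, lay at 119 and 113 TPM in WT and at 128 and 127 TPM in *Sirt6* cKO. The mean levels of *Scg5* and *Chga*, 123 and 122 TPM, did not differ beyond the spread of the libraries. At the other end, *Neurod1*, *Prl* and *Scg3* had mean levels of 0.277, 0.965 and 1.33 TPM.

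None of the 5 most abundant genes passed the test. For *Calcb* the log2 fold change was -0.04 (SE 0.17), from 39604 and 31325 counts in WT and 32409 and 34103 in *Sirt6* cKO. *Syt1* had 21082 and 33103 counts in WT against 24473 and 25538 in *Sirt6* cKO, so that its groups overlapped (log2 fold change -0.07, SE 0.25). *Chga* was the only one of these 5 with both *Sirt6* cKO libraries above WT once depth was accounted for. It had 6786 and 6069 counts in WT against 6700 and 6994 in *Sirt6* cKO (log2 fold change 0.14, SE 0.18). *Nts* did not pass, with 10719 and 9830 counts in WT, 7264 and 8918 in *Sirt6* cKO and a log2 fold change of -0.29 (SE 0.18). *Scg5* had 4429 and 5658 counts in WT against 3805 and 3565 in *Sirt6* cKO (log2 fold change -0.40, SE 0.24). In *Nts* and *Scg5* the groups did not overlap, and both *Sirt6* cKO libraries were the lower ones.

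**Figure D2:**
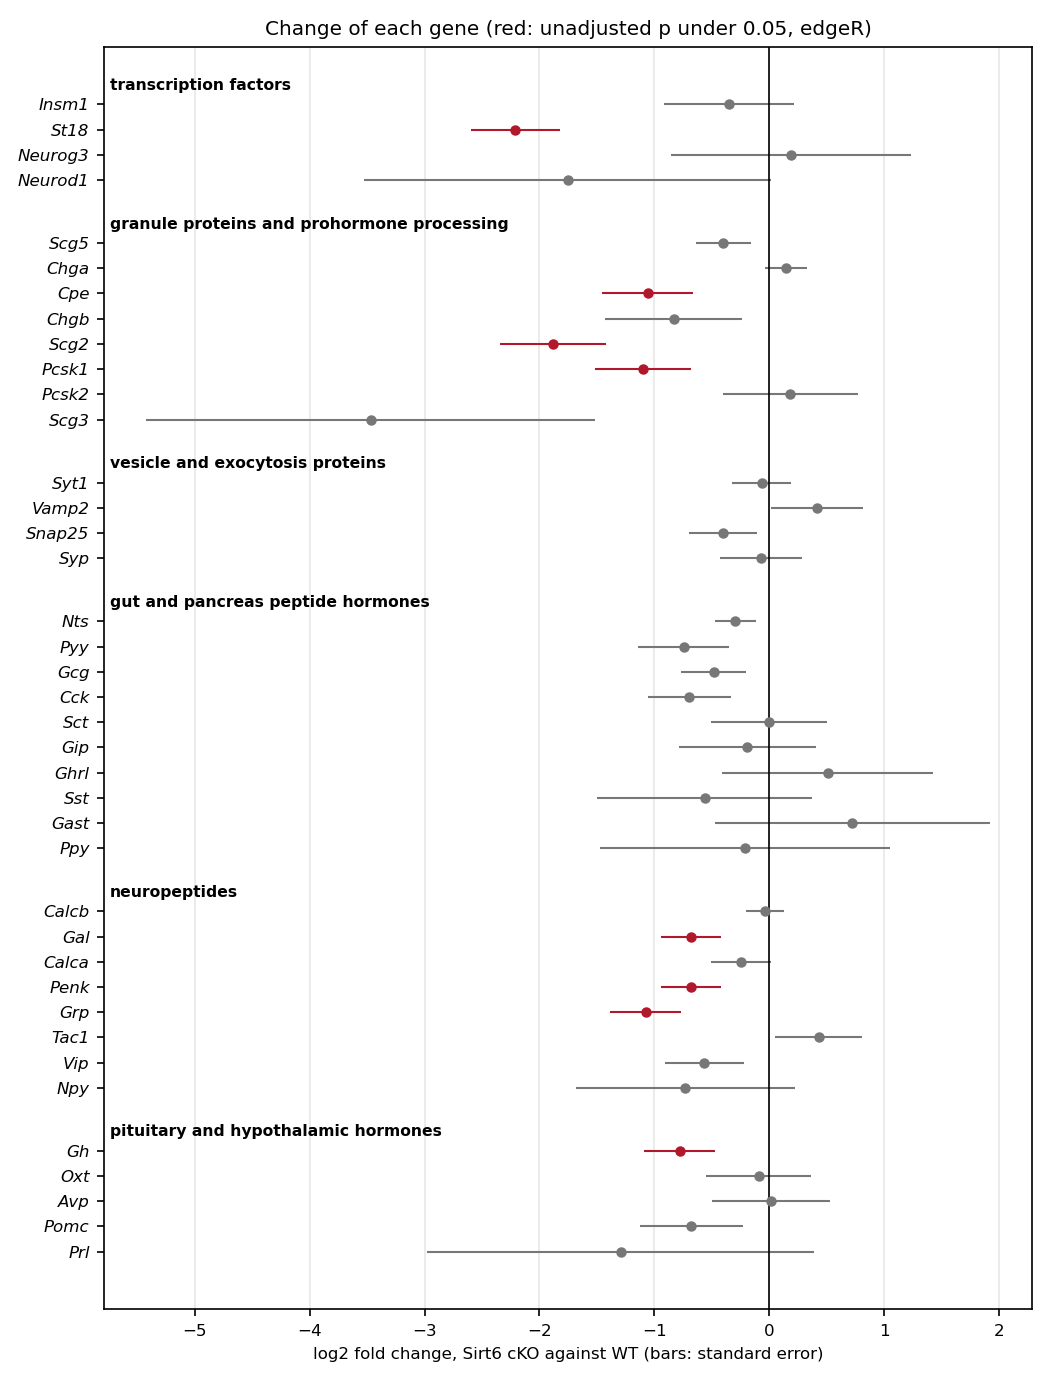
Log2 fold change of each gene between *Sirt6* cKO and WT (edgeR), with its standard error as a bar, grouped by role and ordered by level within a role. The 8 genes in red passed an unadjusted p of 0.05, all on the negative side, and the widest bars belong to genes with few counts such as *Scg3* and *Neurod1*.

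Among the 4 transcription factors, 1 fell (25%, beside 3.32% of all genes tested) and 3 did not pass. *St18*, a zinc finger factor of the Myt1 family that is expressed in pancreatic endocrine cells, lies on chromosome 1 (6487231 to 6860940, plus strand, GRCm38) and has 24 exons in its longest transcript. It had 1029 and 1640 counts in WT against 260 and 298 in *Sirt6* cKO. Both WT libraries were far above both *Sirt6* cKO libraries, which lay close to each other. Its level averaged 20.7 ± 7.11 CPM in WT and 4.48 ± 0.239 CPM in *Sirt6* cKO (SD, n = 2 each). With a log2 fold change of -2.21 (SE 0.39, adjusted p = 0.541), the level was 4.63-fold higher in WT. It passed the unadjusted p whichever library was left out, with log2 fold changes from -2.55 without WT 1 to -1.81 without WT 2.

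The other factors of the endocrine lineage gave no clear direction. *Insm1*, a zinc finger repressor required for endocrine differentiation, had 328 and 766 counts in WT against 300 and 539 in *Sirt6* cKO. *Neurog3*, which starts the endocrine program in the pancreas and gut, had 36 and 109 counts in WT against 66 and 95 in *Sirt6* cKO. *Neurod1*, a target of Neurog3 that maintains endocrine identity, had 60 and 5 counts in WT against 12 and 6 in *Sirt6* cKO. The groups overlapped in all 3, and the WT libraries of *Neurod1* differed by 11.7-fold in depth-scaled level. Log2 fold changes were -0.35 for *Insm1*, 0.19 for *Neurog3* and -1.75 for *Neurod1*, with standard errors of 0.57, 1.05 and 1.77. Each of the 3 changed sign when 1 WT library was left out. *Insm1* lay at 0.42 without WT 2, *Neurog3* at -0.43 without WT 1 and *Neurod1* at 0.85 without WT 1.

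Of the 8 genes for granule proteins and prohormone processing, 3 fell (37.5%, beside 3.32% of all genes tested) and 5 did not pass. The median log2 fold change of the 8 was -0.95. The 3 cover separate steps. *Scg2* encodes secretogranin II, a granin that is packed into dense-core granules and cut into secretoneurin. *Pcsk1* encodes prohormone convertase 1/3, which cuts precursors after pairs of basic residues. *Cpe* encodes carboxypeptidase E, which removes those basic residues from the new ends.

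*Scg2* (chromosome 1, 79434669 to 79440120, minus strand) had 1134 and 899 counts in WT against 172 and 363 in *Sirt6* cKO. The lower WT library was above both *Sirt6* cKO libraries, and those differed by 1.99-fold in depth-scaled level. Its level averaged 15.7 ± 2.26 CPM in WT and 4.25 ± 1.99 CPM in *Sirt6* cKO (SD, n = 2 each). This is a log2 fold change of -1.89 (SE 0.46, adjusted p = 0.541), or 3.69-fold higher in WT. Like *St18*, it passed the unadjusted p whichever library was left out, with values from -2.48 (*Sirt6* cKO 2 left out) to -1.47 (*Sirt6* cKO 1 left out).

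*Pcsk1* (chromosome 13, 75089826 to 75134861, plus strand) had 585 and 982 counts in WT against 322 and 386 in *Sirt6* cKO. Both WT libraries were higher, WT 2 by more. Its level averaged 12.2 ± 4.59 CPM in WT and 5.68 ± 0.483 CPM in *Sirt6* cKO (SD, n = 2 each). At a log2 fold change of -1.10 (SE 0.42, adjusted p = 0.563) it passed the unadjusted threshold, but *Pcsk1* did not pass without WT 2 (-0.65), *Sirt6* cKO 1 (-1.01) or *Sirt6* cKO 2 (-1.21). The call on *Pcsk1* also ended with limma on the TPM values (-0.93 on the log2(TPM + 1) scale and -1.05 on the log2(TPM + 0.1) scale). *Cpe* (chromosome 8, 64592542 to 64693054, minus strand) had 2442 and 2233 counts in WT against 703 and 1483 in *Sirt6* cKO. The WT libraries were close, while *Sirt6* cKO 1 lay far below *Sirt6* cKO 2. Its level averaged 36.2 ± 1.57 CPM in WT and 17.4 ± 8.11 CPM in *Sirt6* cKO (SD, n = 2 each). Its log2 fold change was -1.06 (SE 0.39, adjusted p = 0.562). *Cpe* did not pass without WT 1 (-1.04 on the log2 scale), WT 2 (-1.10) or *Sirt6* cKO 1 (-0.64), and lay at -1.65 without *Sirt6* cKO 2.

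*Scg3*, a granin that binds granule membranes, was low, with 95 and 218 counts in WT against 0 and 28 in *Sirt6* cKO. Its groups did not overlap, and a count of 0 allows up to 3 counts in that library by counting error alone. A log2 fold change of -3.47 with a standard error of 1.95 did not pass. *Scg3* passed without *Sirt6* cKO 2, where only the library at 0 was left on one side, and it passed with limma on log2(TPM + 1) at -1.46 and on log2(TPM + 0.1) at -3.33.

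The remaining granule genes split. *Chgb*, or chromogranin B, had 2010 and 803 counts in WT against 1020 and 476 in *Sirt6* cKO, so that the groups overlapped (log2 fold change -0.83, SE 0.60). In both groups its replicate 1 was over 2-fold above replicate 2 (2.43-fold in WT and 2.28-fold in *Sirt6* cKO, scaled for depth). *Pcsk2*, the second convertase of the pathway, had 442 and 729 counts in WT against 912 and 355 in *Sirt6* cKO (log2 fold change 0.18). Its sign rested on *Sirt6* cKO 1, since the log2 fold change was -0.71 without that library, and it was -0.18 without WT 1. *Scg5*, described above, encodes 7B2, the chaperone of Pcsk2.

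Because granule genes are known targets of the cAMP response element, the letters TGACGTCA, which read the same on both strands, were searched in the 250 bases before each start site in the RefSeq promoter table (GRCm38.p6). The search was chosen after values and sequences had been seen. A promoter was listed for 30 of the 39 genes, in 35 windows, and for 3 of the 8 genes that fell (*Scg2*, *Pcsk1* and *Gal*). The element was found in 4 of the 30 genes (13.3%) and in 1.77% of all 27025 genes with a window, a gene counting once however many windows it had. It was present in *Scg2* and *Pcsk1*, which fell, and also in *Chgb* and *Sst*, which did not pass the test. Its 5-base core, TGACG, which every full element contains on both strands, was found in 14 of the 30 genes (46.7%) and in 19.8% of all genes with a window. The 4 stretches are shown because they place the same 8 letters beside genes that passed and genes that did not. Each is the 120 bases before the RefSeq start site, 5′ to 3′ on the strand of the gene, with the element in capitals.
Scg2: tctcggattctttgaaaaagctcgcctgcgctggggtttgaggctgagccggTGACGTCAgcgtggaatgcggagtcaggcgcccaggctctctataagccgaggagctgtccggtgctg
Pcsk1: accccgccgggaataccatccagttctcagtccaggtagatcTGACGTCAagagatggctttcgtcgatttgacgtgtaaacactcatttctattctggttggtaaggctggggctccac
Chgb: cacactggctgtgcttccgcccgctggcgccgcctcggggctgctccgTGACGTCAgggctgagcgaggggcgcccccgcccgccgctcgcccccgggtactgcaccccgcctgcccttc
Sst: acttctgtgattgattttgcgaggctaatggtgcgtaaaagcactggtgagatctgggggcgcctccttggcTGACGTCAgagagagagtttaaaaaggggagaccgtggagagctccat

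They lie at chr1:79440027-79440146 (minus strand), chr13:75089737-75089856 (plus strand), chr2:132781522-132781641 (plus strand) and chr16:23890845-23890964 (minus strand), in that order. The first base of the element stood 68 bases before the RefSeq start site in *Scg2*, 78 in *Pcsk1*, 72 in *Chgb* and 48 in *Sst*. GENCODE M21 places the outermost start of these genes farther upstream than RefSeq, by 94, 31, 364 and 114 bases. Against those starts, the element lies before the start in *Pcsk1* only, and after it in *Scg2*, *Chgb* and *Sst*. A match of letters is a description of the window and was not tied to any binding measurement. An E-box of the type bound by NeuroD factors, CAGATG, read on both strands, was present in 7 of the 30 genes (23.3%) and in 16.3% of all genes with a window, and in none of the 3 genes that fell and had a window.

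**Figure D3:**
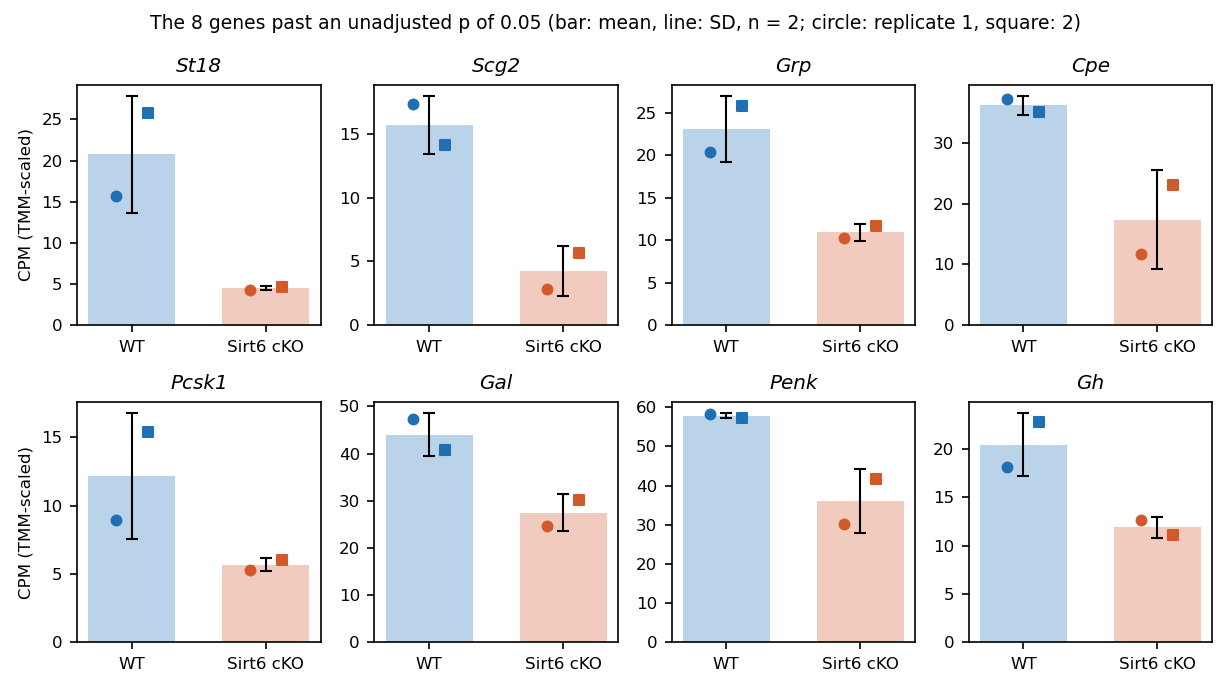
Depth-scaled level (CPM with TMM factors, axis from 0) of the 8 genes that fell at an unadjusted p of 0.05. Bars give the mean and lines the SD of 2 libraries, with circles for replicate 1 and squares for replicate 2, and in each panel both WT libraries lie above both *Sirt6* cKO libraries.

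None of the 4 genes for vesicle and exocytosis proteins passed the test, and their median log2 fold change was -0.07. *Snap25*, a plasma membrane component of the fusion machinery, had 1081 and 1147 counts in WT against 735 and 896 in *Sirt6* cKO. It was the only one of the 4 whose groups did not overlap and had the lowest log2 fold change (-0.40). *Vamp2*, the vesicle partner in the same complex, had the highest (0.41), from 2831 and 4789 counts in WT and 6076 and 3666 in *Sirt6* cKO. With *Sirt6* cKO 1 left out, *Vamp2* lay at -0.05 on the log2 scale. The synaptic vesicle protein gene *Syp* had 562 and 792 counts in WT against 612 and 630 in *Sirt6* cKO (log2 fold change -0.08). *Syp* and *Syt1* both changed sign without WT 2, to 0.22 and 0.32.

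Among the 10 hormones of gut and pancreas, none passed with edgeR, and the median log2 fold change was -0.25. In 5 of them both *Sirt6* cKO libraries were below WT, against 20.3% of all genes tested. In 2 both were above, against 21.6%, and in 3 the groups overlapped. The lowest log2 fold change was that of *Pyy*, the peptide YY precursor of distal gut cells, with 1415 and 933 counts in WT and 501 and 856 in *Sirt6* cKO (-0.74, SE 0.40). *Cck*, the precursor of cholecystokinin, was similar, with 656 and 581 counts in WT and 330 and 407 in *Sirt6* cKO (log2 fold change -0.70, SE 0.36). Both passed an unadjusted p of 0.05 with limma on log2(TPM + 1), at -0.75 for *Pyy* and -0.68 for *Cck*. *Gcg*, the proglucagon gene, had 2253 and 1673 counts in WT against 1253 and 1455 in *Sirt6* cKO (log2 fold change -0.48). *Sst*, the somatostatin precursor with the element shown above, had 102 and 81 counts in WT against 64 and 55 in *Sirt6* cKO (log2 fold change -0.56).

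The 2 genes of this group with both *Sirt6* cKO libraries above WT were *Gast* and *Ghrl*. *Gast*, the gastrin precursor, had 32 and 26 counts in WT against 48 and 44 in *Sirt6* cKO, the highest log2 fold change of all 39 genes (0.72, SE 1.20). *Ghrl*, the ghrelin precursor, had 59 and 72 counts in WT against 84 and 96 in *Sirt6* cKO (log2 fold change 0.51, SE 0.92). In neither was the difference larger than its standard error. The remaining 3, *Sct* (secretin), *Gip* and *Ppy* (pancreatic polypeptide), overlapped between groups, with log2 fold changes of -0.01, -0.19 and -0.21. *Gip* ranged by 2.21-fold between the *Sirt6* cKO libraries, from 140 to 329 counts. *Ppy* had 28 to 41 counts in all 4 libraries, and 8.6% of the 50-base words of *Ghrl* transcripts were shared with an overlapping gene, *Gm44033*.

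Of the 8 neuropeptide genes, 3 fell (37.5%, beside 3.32% of all genes tested) and 5 did not pass. The median log2 fold change of the 8 was -0.62. *Grp*, on chromosome 18, encodes gastrin-releasing peptide, a mammalian bombesin. It had 1332 and 1646 counts in WT against 618 and 749 in *Sirt6* cKO. The WT libraries lay well above the *Sirt6* cKO libraries, and the libraries of a group were close. Its level averaged 23.1 ± 3.90 CPM in WT and 11.0 ± 1.02 CPM in *Sirt6* cKO (SD, n = 2 each). *Grp* thus had a log2 fold change of -1.08 (SE 0.31, adjusted p = 0.541), and it did not pass without WT 2 (-0.89) or *Sirt6* cKO 1 (-0.98).

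*Gal*, the precursor of galanin, lies on chromosome 19 (3409915 to 3414544, minus strand). It had 3091 and 2599 counts in WT against 1490 and 1940 in *Sirt6* cKO. Both WT libraries were higher, by 1.60-fold on average, at 44.0 ± 4.51 CPM against 27.5 ± 3.93 CPM (SD, n = 2 each). Its log2 fold change of -0.68 had a standard error of 0.26 (adjusted p = 0.564), and *Gal* no longer passed whichever library was left out, with values from -0.85 without *Sirt6* cKO 2 to -0.54 without *Sirt6* cKO 1 (-0.60 without WT 1, -0.78 without WT 2).

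*Penk*, the precursor of enkephalins, lies on chromosome 4 (4133531 to 4138819, minus strand). It had 3814 and 3648 counts in WT against 1823 and 2676 in *Sirt6* cKO. The WT libraries were nearly equal and both above the *Sirt6* cKO libraries. Its level averaged 57.8 ± 0.667 CPM in WT and 36.0 ± 8.14 CPM in *Sirt6* cKO (SD, n = 2 each). For *Penk* this is a log2 fold change of -0.68 (SE 0.26, adjusted p = 0.566), which, with 1 library left out, still passed without *Sirt6* cKO 2 (-0.95) but not without *Sirt6* cKO 1 (-0.47), WT 1 (-0.70) or WT 2 (-0.70). Its exons overlap those of *A830012C17Rik* on the opposite strand by 233 bases, and whether the counting used strand is not given in the sources used here, so those reads cannot be assigned.

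The other neuropeptides did not pass. *Vip*, the precursor of vasoactive intestinal peptide, had 2572 and 1463 counts in WT and 1308 in each *Sirt6* cKO library. Its WT libraries differed from each other more than WT 2 differed from *Sirt6* cKO (log2 fold change -0.57, SE 0.35), and of the 4 fits with a library left out it passed in the one without WT 2 (-0.90). *Npy* was low, with 88 and 108 counts in WT and 40 and 75 in *Sirt6* cKO (log2 fold change -0.73). *Tac1*, the substance P precursor, had the highest log2 fold change of the group (0.43), with overlapping groups of 1411 and 797 counts in WT and 1186 and 1682 in *Sirt6* cKO. *Calca*, the neighbour of *Calcb* that encodes calcitonin and the alpha form of its gene-related peptide, had 2771 and 3184 counts in WT against 2063 and 2798 in *Sirt6* cKO (log2 fold change -0.25). The pair *Calca* and *Calcb* is near-identical in its peptides, but under 2% of the 50-base words of either transcript were shared with any other gene.

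Of the 5 pituitary and hypothalamic hormones, 1 fell (20%, beside 3.32% of all genes tested) and 4 did not pass. *Gh*, which encodes growth hormone, lies on chromosome 11 (106300271 to 106301865, minus strand). It had 1184 and 1445 counts in WT against 764 and 712 in *Sirt6* cKO. Both WT libraries were above both *Sirt6* cKO libraries. Its level averaged 20.4 ± 3.27 CPM in WT and 11.9 ± 1.10 CPM in *Sirt6* cKO (SD, n = 2 each). At a log2 fold change of -0.78 (SE 0.31, adjusted p = 0.578), *Gh* still passed when WT 1 was left out (-0.96), but not without WT 2 (-0.61), *Sirt6* cKO 1 (-0.87) or *Sirt6* cKO 2 (-0.71). The call on *Gh* also ended when genes were tested only above 0.1 TPM in all libraries (-0.78).

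*Pomc*, the precursor of corticotropin and melanocortins, had 468 and 410 counts in WT against 205 and 326 in *Sirt6* cKO, without overlap (log2 fold change -0.68, SE 0.45). *Avp* and *Oxt*, the neighbouring genes for vasopressin and oxytocin, showed almost no difference. *Avp* had 252 and 235 counts in WT against 204 and 271 in *Sirt6* cKO (log2 fold change 0.01, SE 0.51), and *Oxt* had 315 and 408 in WT and 263 and 396 in *Sirt6* cKO (log2 fold change -0.09, SE 0.46). The sign of *Avp* turned with the scaling, and 14.8% of its 50-base words and 16.0% of those of *Oxt* were shared with another gene. *Prl*, or prolactin, had 12 and 60 counts in WT against 4 and 25 in *Sirt6* cKO (log2 fold change -1.295, SE 1.69), and it lay at 0.31 without WT 2.

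Over the 23 peptide precursors of the last 3 groups, 4 fell (17.4%), none rose and 19 did not pass (edgeR). Among all genes tested, 3.32% were lower and 5.27% higher. The median log2 fold change of the 23 was -0.48. Both *Sirt6* cKO libraries lay below WT in 12, against 20.3% of all genes. Both lay above WT in 2, against 21.6% of all genes, and 9 overlapped. DESeq2 called none of the 23 at an adjusted p under 0.05.

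**Figure D4:**
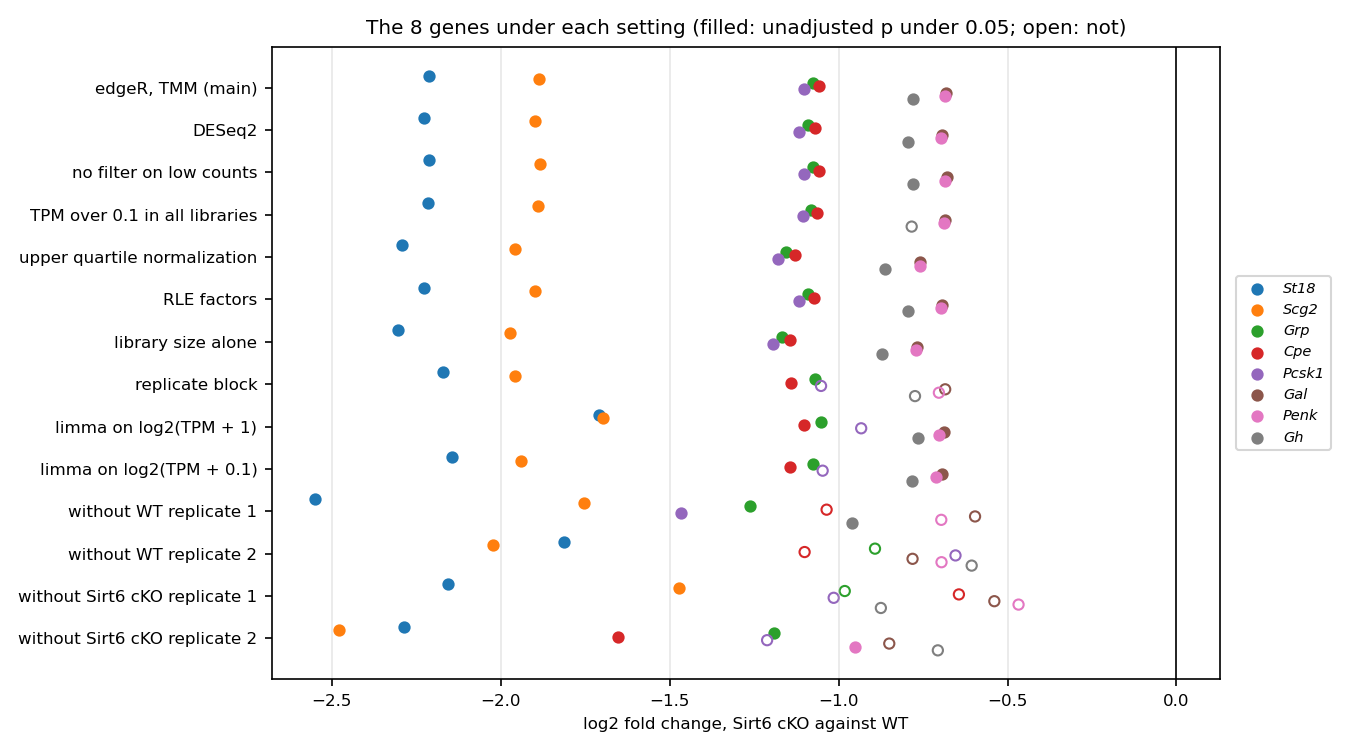
Log2 fold change of the 8 genes that fell, under the analysis reported here (top) and each alternative, with filled points for an unadjusted p under 0.05 and open points otherwise. All points lie below 0, *St18* and *Scg2* are filled in every setting, and without WT 2 or without *Sirt6* cKO 1 they are the only filled ones.

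Without WT 1, 5 of the 8 genes still passed, without WT 2 and without *Sirt6* cKO 1 it was 2, and without *Sirt6* cKO 2 it was 5. Those 2 genes were *St18* and *Scg2* in both cases. With 1 library left out, the lone library of a group is assumed to vary like the pair of the other group. An exact two-sided permutation test of 1 gene cannot go below p = 0.333 with 2 libraries against 2.

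Markers of other cell types moved in the same libraries. Of 15 tested tuft cell markers, 9 fell and none rose, beside 3.32% lower and 5.27% higher over all genes tested. Log2 fold changes were negative in 12 of the 15 and positive in *Gfi1b* (0.55), *Dclk1* (0.36) and *Pou2f3* (0.24). In *Pou2f3*, a regulator of tuft cells, both *Sirt6* cKO libraries lay above WT. The summed level of the 16 in the table was 748 and 906 TPM in WT and 420 and 386 TPM in *Sirt6* cKO. The largest part of each sum was *Gnb3*. *Hmx2*, a tuft cell factor, was listed at 0 in *Sirt6* cKO 2, and no other marker of this list was at 0. The 9 macrophage and dendritic cell markers summed to 9694 and 6074 TPM in WT and 3802 and 4079 TPM in *Sirt6* cKO. Most of each sum was *Lyz2*, with 9532 and 5941 TPM in WT and 3664 and 3955 TPM in *Sirt6* cKO. *Lyz2* and *Emr1* passed as lower, and of the 9 log2 fold changes 7 were negative and 2 positive. Of the 11 thymocyte markers none passed, at 1210 and 897 TPM in WT and 997 and 609 TPM in *Sirt6* cKO. The 13 markers of neurons and Schwann cells summed to 133 and 148 TPM in WT and 175 and 169 TPM in *Sirt6* cKO. The higher sum in *Sirt6* cKO rested on *Mbp*, with 53.8 and 77.4 TPM in WT and 118 and 109 TPM in *Sirt6* cKO. *Mbp* passed as higher and *Nefl* as lower. Of the 13 log2 fold changes 7 were negative and 6 positive, with a median of -0.17. None of the markers of the last 3 cell types was at 0 in any library. The part of these populations in the 8 genes that fell was not tested. The 10 mTEC markers summed to 19349 and 19110 TPM in WT and 21413 and 21187 TPM in *Sirt6* cKO, with *Epcam*, *Aire* and *Cd80* higher. Most of each sum was *H2-Aa*, with 15267 and 14864 TPM in WT and 16768 and 15196 TPM in *Sirt6* cKO. *H2-Aa* did not pass, and its groups overlapped (log2 fold change 0.09, SE 0.12). Of 8 markers of cortical epithelial cells 1, *Ly75*, was higher, and none of 6 B cell markers or 10 markers of fibroblasts and endothelial cells passed. The number of tuft cell markers that fell was 4 without WT 2 or *Sirt6* cKO 2, and the number of macrophage and dendritic cell markers was 1 without WT 1 or *Sirt6* cKO 1. Without WT 1, 1 mTEC marker was higher.

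Other genes of the same pathways were counted from lists beyond the 39. Of 25 further neuroendocrine transcription factors 18 could be tested, and their median log2 fold change was -0.45. Of the 18, 2 fell (11.1%), none rose and 16 did not pass, beside 3.32% lower and 5.27% higher over all genes. *Neurod4*, a relative of *Neurod1*, had 473 and 350 counts in WT against 93 and 124 in *Sirt6* cKO (log2 fold change -1.87, SE 0.52). *Myt1l*, a relative of *St18*, had 224 and 294 counts in WT against 77 and 80 in *Sirt6* cKO (log2 fold change -1.67, SE 0.65). In both genes the groups lay well apart. At its unadjusted p, DESeq2 called 3 of these factors lower and 1 higher, beside 920 lower and 1217 higher of 20997 genes tested. The further genes were *Rfx6*, with 63 and 656 counts in WT against 0 and 23 in *Sirt6* cKO, and *Neurod2*, with 20 and 12 counts against 134 and 77. Both were named after their values were seen. The number that fell was 1 without WT 2 or *Sirt6* cKO 1 and 4 without *Sirt6* cKO 2.

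Of 52 further granule and exocytosis genes tested, 2 fell (3.85%), 2 rose (3.85%) and 48 did not pass. These shares were near those of all genes tested, 3.32% lower and 5.27% higher. The median log2 fold change of the 52 was 0.0036. *Syt5*, a calcium sensor of dense-core vesicles, had 918 and 612 counts in WT against 216 and 231 in *Sirt6* cKO (log2 fold change -1.72, SE 0.40). *Resp18*, a granule protein of endocrine cells, had 2292 and 3637 counts in WT against 1492 and 1491 in *Sirt6* cKO (log2 fold change -0.94, SE 0.32). The 2 that rose were *Eno2*, a neuronal form of enolase, and *Syt7*, a calcium sensor that many cell types use for lysosome exocytosis. *Eno2* had 2634 and 2522 counts in WT against 4471 and 4547 in *Sirt6* cKO (log2 fold change 0.86, SE 0.21). *Syt7* had 575 and 484 counts in WT against 1458 and 822 in *Sirt6* cKO (log2 fold change 1.17, SE 0.41). Without WT 1, 4 of these genes fell and 1 rose, without WT 2, 1 fell and 4 rose, and without *Sirt6* cKO 1, 1 fell.

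Of 39 further peptide hormone genes tested, none fell and 1 rose (2.56%) with edgeR, beside 3.32% lower and 5.27% higher over all genes. DESeq2 at its unadjusted p also called *Nppa* lower and *Pth* higher, both named after their values were seen. The 1 that rose was *Edn1*, the precursor of endothelin 1, with 1955 and 1532 counts in WT and 3485 and 4814 in *Sirt6* cKO, a level 2.46-fold higher. The median log2 fold change of these hormones was -0.29. The number that rose was 2 without WT 2 or *Sirt6* cKO 1, and 1 fell without *Sirt6* cKO 2.

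**Figure D5:**
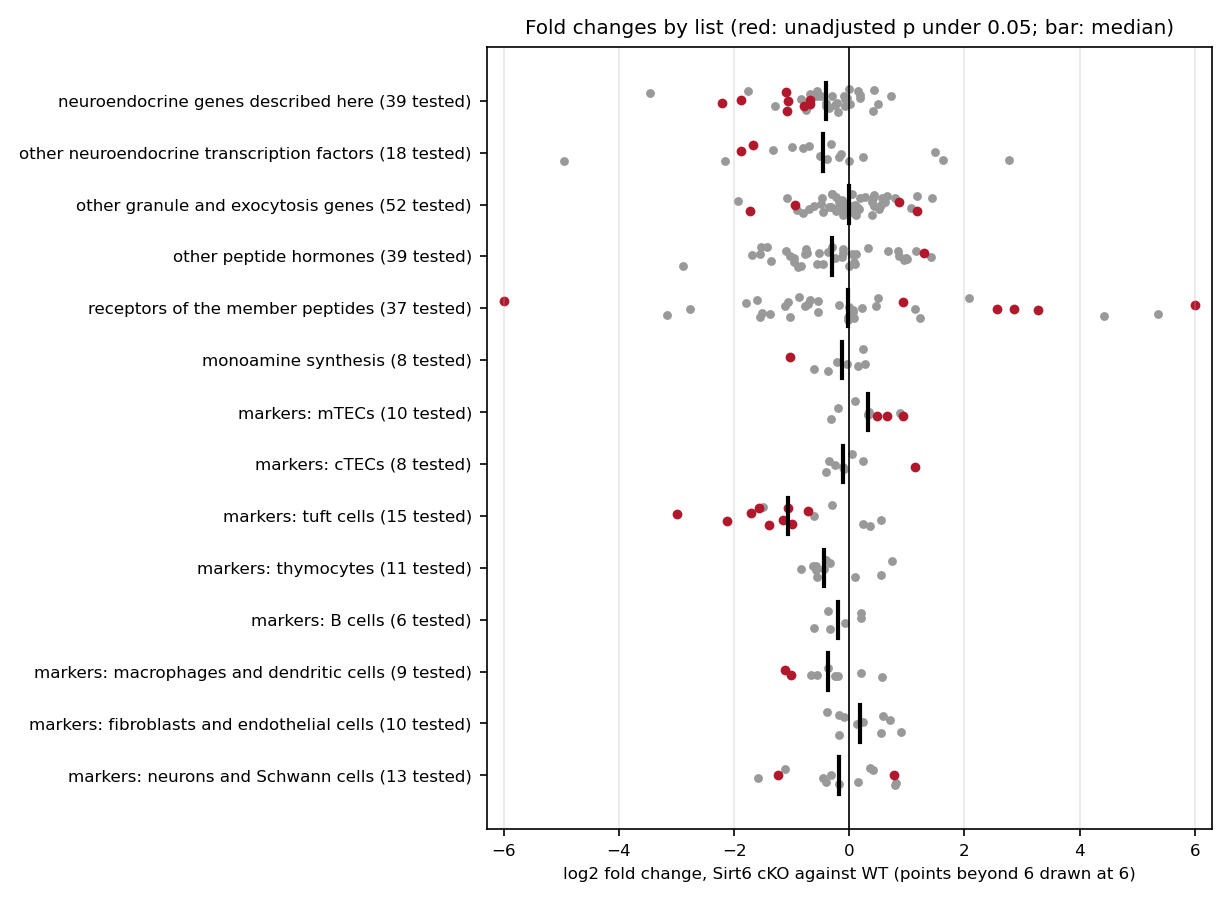
Log2 fold change of each gene tested in the 39 genes described here, in further lists of the same pathways and in markers of other cell types, with red for an unadjusted p under 0.05 and a black bar at the median of each list. The receptor genes *Oprk1* and *Sstr1*, with 0 counts in 1 group, lie outside the axis and are drawn at its ends, and the tuft cell markers have the lowest median, -1.06.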

How the data were processed

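mTECs were measured by RNA-seq in 4 libraries. Reads were trimmed (Trim Galore), mapped to mm10 by HISAT2 2.1.0 and assigned to genes by StringTie 1.3.3 by the authors. The deposited counts are whole numbers per gene symbol, not normalized. The deposited TPM values came from StringTie per library, each with an unnamed total line that was left out here. The annotation and the use of strand are not given in the sources used here. Every column of values was mapped to a sample. No pair of libraries agreed within sampling noise.

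Counts were filtered with filterByExpr (minimum count 10, minimum total 15), scaled with TMM and tested with edgeR 4.0.16 (quasi-likelihood) in R 4.3.3. All 18547 genes were tested together, with Benjamini-Hochberg adjustment and a threshold of 0.05. CPM values use the TMM factors. The biological coefficient of variation was 0.557. The procedure was tested on simulated counts. The alternatives were DESeq2 1.42.0, other filters and scalings, the replicate number as a block, limma 3.58.1 on log2(TPM + pseudocount), which understates changes of low genes, and each library left out in turn.

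The 39 genes, the other lists and the tests were chosen with earlier results of these data known. Genes were described in full where the unadjusted p was under 0.05, where the groups did not overlap with a log2 fold change of at least 1 in size, or where they were among the 5 of highest mean TPM. Of the other lists, up to 4 genes in each direction past the unadjusted p are named, and any further gene is marked. Positions, exon overlaps and shared 50-base words came from GENCODE M21 (GRCm38, equal to mm10). Promoter sequences came from RefSeq (GRCm38.p6), matched by symbol for 30 of 39 genes and not for *Gh*, *Snap25*, *Insm1*, *Calcb*, *Cpe*, *Vamp2*, *Penk*, *St18* and *Grp*. Figures were drawn with matplotlib 3.10.9.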

Additional observations from a re-analysis of the deposited data

How the results depend on the processing

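The 8 genes that fell had negative log2 fold changes in every alternative run, up to -0.47 (*Penk* without *Sirt6* cKO 1), and no member rose in any. The number that fell was 4 with the replicate number as a block and ran from 2 to 6 with 1 library left out, where *Vip* passed in addition without WT 2 and *Scg3* without *Sirt6* cKO 2. It was 7 with the filter on TPM over 0.1, which ended the call of *Gh*, and 10 with limma on TPM, which ended that of *Pcsk1*. Only DESeq2 called members at an adjusted p, 2 of them. Libraries with the same replicate number deviated from their group means with a correlation of -0.0544 over all genes (0.431 over the 39), and the labels tie the numbers to no animal or day, so no pairing was assumed. The block ended the calls of *Pcsk1*, *Gal*, *Penk* and *Gh*. Upper quartile scaling and library size alone turned the split over all genes from 977 higher and 615 lower to 751 and 800 and to 721 and 838, shifting the median of all genes by -0.081 and -0.089. *Avp* (0.01) turned negative with DESeq2 (-0.00091), RLE factors (-0.00084), upper quartile scaling (-0.065), library size alone (-0.076) and limma on log2(TPM + 1) (-0.0031) and log2(TPM + 0.1) (-0.0038).

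With 1 library left out, 14 genes that had not passed changed sign. The ranges were -2.63 to 0.85 for *Neurod1*, -0.43 to 1.22 for *Neurog3*, -0.87 to 0.42 for *Insm1*, -0.71 to 0.71 for *Pcsk2*, -0.34 to 0.22 for *Syp*, -0.40 to 0.32 for *Syt1* and -0.049 to 0.87 for *Vamp2*. For the hormones and neuropeptides they were -0.36 to 0.27 for *Sct*, -0.89 to 0.27 for *Gip*, -0.42 to 0.0097 for *Ppy*, -0.18 to 0.094 for *Calcb*, -0.17 to 0.17 for *Avp*, -0.38 to 0.14 for *Oxt* and -3.08 to 0.31 for *Prl*. Depth limits *Neurod1*, *Prl*, *Gast* and *Ppy*, which have from 4 to 60 counts per library.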

Other observations

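Receptors for the peptides of the list were read as a further group. Of 37 tested, 1 fell, 5 rose and 31 did not pass the unadjusted p with edgeR, beside 3.32% lower and 5.27% higher over all genes tested, and the median log2 fold change was -0.02. *Calcrl*, the receptor subunit for calcitonin gene-related peptide and adrenomedullin, had 4798 and 4967 counts in WT against 9676 and 8268 in *Sirt6* cKO (log2 fold change 0.93, SE 0.21). *Ramp1*, another receptor subunit on this list, was named after its values were seen. It had 3410 and 2666 counts in WT against 2355 and 1636 in *Sirt6* cKO and did not pass (log2 fold change -0.54, SE 0.31). *Sstr3*, a somatostatin receptor, had 28 and 52 counts in WT against 318 and 244 in *Sirt6* cKO (log2 fold change 2.86, SE 0.76). *Sstr1*, another, had 0 counts in both WT libraries and 74 and 20 in *Sirt6* cKO (0.69 and 0.18 TPM). The mean of the *Sirt6* cKO libraries was 16.5-fold above a floor of 3 counts per WT library. *Sirt6* cKO 1 made up most of that mean. *Ntsr1*, a neurotensin receptor, had 54 and 6 counts in WT against 404 and 144 in *Sirt6* cKO (log2 fold change 3.27, SE 1.27). *Oprd1*, an opioid receptor that lies outside the rule for named genes and is given because the count is small, had 108 and 16 counts in WT against 358 and 342 in *Sirt6* cKO (log2 fold change 2.56, SE 0.99). *Oprk1*, the kappa opioid receptor, had 75 counts in each WT library and 0 in both *Sirt6* cKO libraries, a level at least 24.1-fold lower. The number of receptors that rose was 3 with the filter on TPM over 0.1 and 1 without *Sirt6* cKO 1, and the number that fell was 5 without *Sirt6* cKO 2, 3 without WT 1, 2 without WT 2 and 0 with that filter.

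Enzymes of monoamine synthesis, which many endocrine cells share, showed 1 lower gene (12.5%) and none higher among 8 tested (edgeR). Over all genes tested the shares were 3.32% lower and 5.27% higher. *Ddc*, the decarboxylase that makes dopamine and serotonin, had 3229 and 4367 counts in WT against 1217 and 2405 in *Sirt6* cKO (log2 fold change -1.03, SE 0.38). It did not pass without WT 2 or without *Sirt6* cKO 1.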
